A study of Mus musculus with 12 samples.

Results

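The genes described here are 10 markers of the stem cells at the base of the intestinal crypt: *Lgr5*, *Ascl2*, *Olfm4*, *Smoc2*, *Tnfrsf19*, *Slc12a2*, *Prom1*, *Msi1*, *Rgmb* and *Lrig1*. They were chosen by name as known markers of the tissue, with earlier results of these data in view, and all 10 were found among the 14244 genes of the deposited expression table and all 10 had a mean high enough to be tested. Their RNA was measured in gut epithelial cells of 5 wild-type (WT) mice and 7 mice that carry 1 mutated copy of *Chd8* (Chd8L+/-). All mice were C57BL/6 male littermates of 8 weeks, and each gave 1 poly(A) library. The Chd8L allele lacks internal exons of *Chd8*, a chromatin remodeller, in every tissue, so cells outside the epithelium carry it too. The cells were shaken off pieces of intestine without sorting, and the part of the intestine used is not given in the sources used here.

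The lining of the intestine is renewed from crypt base columnar cells, which lie between Paneth cells at the crypt bottom and feed a zone of rapidly dividing daughter cells above. Wnt signals, amplified by R-spondins that bind LGR receptors, keep these cells as stem cells, and BMP signals from the villus side oppose this. EGF receptor signals drive their division, while LRIG1 restrains those signals. The 10 genes sit at different points of this circuit: LGR5 is an R-spondin receptor, ASCL2 a transcription factor under Wnt control, TNFRSF19 a receptor encoded by a Wnt target gene, RGMB a BMP co-receptor and LRIG1 a brake on the ERBB receptors. OLFM4 and SMOC2 are secreted, SLC12A2 is a sodium, potassium and chloride cotransporter, PROM1 is a membrane protein of cell protrusions, and MSI1 binds RNA.

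The genes lie on several chromosomes of the mouse genome (GRCm38, the build called mm10) and all are protein coding. *Lgr5* is at chr10:115450311-115587780 on the minus strand, *Ascl2* at chr7:142966829-142969264 (minus), *Olfm4* at chr14:79984081-80023139 (plus) and *Smoc2* at chr17:14279506-14404790 (plus). *Tnfrsf19* is at chr14:60963875-61046490 (minus), *Prom1* at chr5:43993620-44102032 (minus), *Msi1* at chr5:115429599-115455698 (plus), *Rgmb* at chr17:15803188-15831039 (minus) and *Lrig1* at chr6:94604529-94700158 (minus). Exons of *Olfm4* overlap those of the non-coding gene *Gm6999* on the same strand, and exons of *Prom1* and *Lrig1* overlap those of *Gm16401* and *Slc25a26* on the opposite strand. Since the use of strand in counting is not given in the sources used here, reads of these overlaps cannot be told apart.

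Promoters are shown for *Olfm4*, the marker with the most RNA, for *Lrig1*, the marker with the largest difference between genotypes, and for the window of *Rgmb* with a match to the core letters that TCF and LEF factors of the Wnt pathway bind. Each runs from 250 bases before to 50 bases after a RefSeq start (GRCm38.p6), 5′ to 3′ on the strand of the gene, and capitals mark a match.
Olfm4, chr14:80000052-80000351, plus strand: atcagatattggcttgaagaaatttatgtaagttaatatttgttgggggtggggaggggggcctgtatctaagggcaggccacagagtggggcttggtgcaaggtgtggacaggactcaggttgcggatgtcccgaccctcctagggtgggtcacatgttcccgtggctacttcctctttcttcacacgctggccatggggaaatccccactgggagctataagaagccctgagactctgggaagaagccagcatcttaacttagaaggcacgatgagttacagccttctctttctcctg
Lrig1, chr6:94700096-94700395, minus strand: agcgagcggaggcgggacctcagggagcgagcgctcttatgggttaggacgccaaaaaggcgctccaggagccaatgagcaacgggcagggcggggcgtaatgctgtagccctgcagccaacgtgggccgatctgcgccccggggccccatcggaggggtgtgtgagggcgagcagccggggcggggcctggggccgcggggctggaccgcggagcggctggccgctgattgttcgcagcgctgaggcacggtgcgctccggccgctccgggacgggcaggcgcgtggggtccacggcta
Rgmb, chr17:15831016-15831315, minus strand: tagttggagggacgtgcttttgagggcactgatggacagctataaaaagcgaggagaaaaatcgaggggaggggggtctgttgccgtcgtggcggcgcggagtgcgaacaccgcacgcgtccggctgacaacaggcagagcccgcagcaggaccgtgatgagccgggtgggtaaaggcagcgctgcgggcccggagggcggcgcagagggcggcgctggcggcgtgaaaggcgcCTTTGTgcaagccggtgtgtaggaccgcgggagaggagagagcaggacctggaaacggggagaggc
Over the 10 promoter windows of the 6 markers that matched RefSeq (*Ascl2*, *Olfm4*, *Tnfrsf19*, *Prom1*, *Rgmb* and *Lrig1*; *Lgr5*, *Smoc2*, *Slc12a2* and *Msi1* did not), CTTTGA or CTTTGT on either strand was found in 3, 1 each of *Tnfrsf19*, *Prom1* and *Rgmb*. Of all 32851 windows of this length, 31.2% held these letters. The E-box CAGCTG, which reads the same on both strands and overlaps no other match here, was found in 1 window, of *Tnfrsf19*, against 16.3% of all windows. The GC content of the windows shown was 52.3% for *Olfm4*, 66.0% for *Rgmb* and 73.0% for *Lrig1*, beside a median of 52.7% over all windows.

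Between 15691662 and 20761315 reads per library were recovered from the deposited values, which are reads per gene divided by a size factor of the library (normalized counts). The mean normalized count of *Chd8* itself was 953 (SD 85.5, n = 5) for WT and 1297 (SD 123, n = 7) for Chd8L+/-, and each Chd8L+/- library lay above each WT library. The log2 fold change (Chd8L+/- minus WT) of *Chd8* was 0.44 with an adjusted p of 0.121 in limma and a two-sided exact permutation p of 0.00126, the smallest that 5 against 7 libraries allow. It passed in DESeq2 on the recovered reads (0.44, adjusted p = 0.0038) and in limma without WT replicate 2 (0.48, adjusted p = 0.0068). A count over the whole gene includes exons outside the deleted part and does not check the deletion. On the first principal component of all genes tested (39.7% of the variance), WT replicate 2 had a score of 41.0, inside the range of the Chd8L+/- libraries (0.26 to 42.7), while the other 4 WT libraries lay between -67.5 and -26.2. Whether this library is labelled rightly was not tested. It was kept in its labelled group, and the genotype differences of the 10 markers and of most of the gene lists are also given without it. The epithelial genes *Epcam* and *Vil1* had mean normalized counts of 42403 and 45602 in WT, beside which stromal markers, enterocyte markers and markers of dividing cells are given with the results.

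The 10 genes differed widely in level. Per kb of exon, a scale on which genes can be compared, *Olfm4* averaged 1836 ± 928 normalized counts (SD) over the 5 WT and 2408 ± 832 over the 7 Chd8L+/- libraries, and 97.3% of the 12651 tested genes with a known exon length had less. *Slc12a2* followed at 269 ± 127 per kb in WT, then *Prom1* at 176 ± 37.8, *Lrig1* at 123 ± 65.4 and *Smoc2* at 80.9 ± 53.7. *Rgmb* at 48.5 ± 14.5 and *Ascl2* at 44.8 ± 16.9 were next. *Msi1* at 28.5 ± 3.31, *Lgr5* at 17.4 ± 6.15 and *Tnfrsf19* at 8.49 ± 4.09 per kb were the lowest, and 24.0% of the tested genes had a lower mean per kb than *Lgr5*. The order of the means was the same in Chd8L+/- libraries. In WT, the ranges of *Olfm4* and *Slc12a2* did not overlap, by a ratio of means of 6.81, while every other pair of neighbours in the order overlapped in range. The exon length joins the exons of all annotated transcripts of a gene, so a level per kb can be understated and the order of close neighbours is uncertain. For *Lgr5*, 8 transcripts were joined to 10.264 kb. In Chd8L+/- the means of *Msi1* and *Lgr5* had a ratio of only 1.02. Thus per kb of joined exon length *Lgr5*, the defining receptor of these cells, was among the least abundant of the 10 RNAs. The RNA of the secreted OLFM4 was the most abundant by far.

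**Figure D1:**
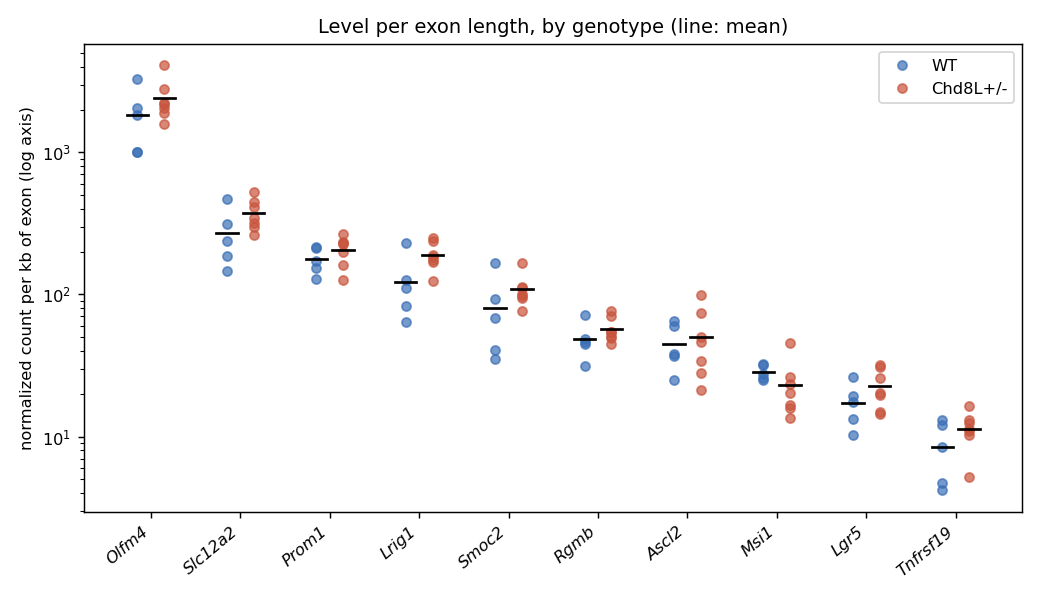
Normalized count per kb of exon (log axis) of the 10 markers in each of 5 WT (blue) and 7 Chd8L+/- (red) libraries, ordered by the WT mean, with a line at each mean. *Olfm4* stands apart at a WT mean of 1836, and *Tnfrsf19* is lowest at 8.49.

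The relatives of these genes, chosen for the comparison after the values had been seen, gave a scale for the levels, per kb of the same joined exon length. *Lgr4*, the R-spondin receptor used throughout the crypt, had 352 ± 26.6 normalized counts per kb in WT against 17.4 for *Lgr5*. *Msi2* had 58.5 ± 14.8 per kb against 28.5 for *Msi1*. *Lrig3* and *Lrig2* had 45.9 ± 9.43 and 21.9 ± 1.98 per kb, both below *Lrig1* at 123, and *Smoc1* (6.75 ± 2.76), *Olfm1* (5.55 ± 1.72) and *Rgma* (3.83 ± 2.77) lay far below *Smoc2*, *Olfm4* and *Rgmb*. None of the 7 relatives that were tested passed in limma or DESeq2. Without WT replicate 2 limma called 1 as higher and 1 as lower, where 14.0% and 13.6% of all genes passed. *Smoc1* had the largest log2 fold change of them at -1.24 (SE 0.40, adjusted p = 0.125), against 0.63 for *Smoc2*, and *Lgr4* had 0.20 (SE 0.13, adjusted p = 0.332).

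Whether the mutation changed these markers was tested with limma on log2(normalized count + 1) over all 12808 genes with a mean of at least 10, with Benjamini-Hochberg adjusted p. None of the 10 passed an adjusted p of 0.05, at which 0.0234% of all genes tested passed in either direction (3 genes, all lower). DESeq2 on the recovered reads called 6.44% of the genes it tested and edgeR called 5 genes, and both called 0 of the 10. In limma, 9 of the 10 had a higher mean log2 level in Chd8L+/- libraries and 1, *Msi1*, a lower one. The median log2 fold change of the 10 was 0.43, beside 0.014 over all genes tested. Before adjustment, 1 of the 10, *Lrig1*, was higher at p of 0.05 or less, where 12.5% of all genes were, and 0 were lower, where 11.8% were. In these bulk samples a change in the number of cells of a type and a change in RNA per cell cannot be told apart.

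*Lrig1*, the brake on ERBB receptors, differed most. Its normalized counts in WT replicates 1 to 5 were 708, 1295, 358, 460 and 618. In Chd8L+/- replicates 1 to 7 they were 1021, 945, 975, 1335, 1050, 1401 and 696. WT replicate 2 lay among the highest Chd8L+/- libraries, and the other WT libraries lay at or below the level of Chd8L+/- replicate 7 except WT replicate 1, just above it. The log2 fold change was 0.73 (95% interval 0.16 to 1.31, adjusted p = 0.136 in limma, two-sided exact permutation p = 0.0316), with 7 of 7 Chd8L+/- libraries above the WT median. The receptor genes around it differed less. *Rgmb*, the BMP co-receptor, had 370, 549, 240, 345 and 356 in WT and a lowest, median and highest of 345, 417 and 583 in Chd8L+/-. Its log2 fold change was 0.27 (95% interval -0.14 to 0.67, limma adjusted p = 0.389), and the groups overlapped.

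*Lgr5*, the R-spondin receptor, had 180, 270, 105, 137 and 199 normalized counts in WT. In Chd8L+/- its lowest, median and highest values were 149, 206 and 326. The groups overlapped, with 5 of 7 Chd8L+/- libraries above the WT median and 2 above every WT library. The log2 fold change was 0.38 (95% interval -0.17 to 0.94, limma adjusted p = 0.366). *Tnfrsf19*, the Wnt target receptor and the lowest of the 10 per kb, had 62.2, 56.8, 22.2, 19.8 and 40.1 in WT against 24.4, 53.4 and 77.4 (lowest, median, highest) in Chd8L+/-. Its difference was 0.48 on the log2 scale (95% interval -0.24 to 1.21, limma adjusted p = 0.382), with as few as 20 recovered reads in a library, for which counting alone gives a coefficient of variation of 22.4%.

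*Ascl2*, the transcription factor that with LGR5 marks the stem cell state, had the smallest difference of the 10. Its WT counts were 105, 97.4, 40.3, 59.5 and 61.4. Its Chd8L+/- counts ran from 34.5 through a median of 74.6 to 161, so they covered the whole WT range and went past it at both ends. The log2 fold change was 0.079 (95% interval -0.71 to 0.87, limma adjusted p = 0.912), an interval wide enough to hold the estimates of all of the other 9 genes, and it was below 0 with quantile normalization (-0.095) and without Chd8L+/- replicate 1 (-0.043), Chd8L+/- replicate 6 (-0.11) or WT replicate 3 (-0.11).

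The secreted proteins and the cotransporter showed a like layout of libraries. *Olfm4* had 6119, 9658, 2999, 2982 and 5431 normalized counts in WT and 4692, 6508 and 12150 (lowest, median, highest) in Chd8L+/-. WT replicates 3 and 4 were the lowest of the 12 and Chd8L+/- replicate 6 the highest, and the log2 fold change was 0.47 (95% interval -0.16 to 1.11, limma adjusted p = 0.331). *Smoc2* had 645, 1165, 280, 244 and 476 in WT and 528, 705 and 1153 in Chd8L+/-. All 7 Chd8L+/- libraries were above the WT median, yet none was above WT replicate 2, and the log2 fold change was 0.63 (95% interval -0.07 to 1.32, limma adjusted p = 0.247). *Slc12a2* had 3401, 5102, 1591, 2035 and 2583 in WT and 2850, 3740 and 5737 in Chd8L+/-. Here too 7 of 7 Chd8L+/- libraries were above the WT median, with a log2 fold change of 0.55 (95% interval -0.0077 to 1.10, limma adjusted p = 0.211).

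*Prom1* and *Msi1* were laid out otherwise. *Prom1* had 1100, 1512, 1243, 1552 and 914 normalized counts in WT and 912, 1637 and 1898 (lowest, median, highest) in Chd8L+/-. WT replicate 4, among the lowest libraries for *Olfm4* and *Smoc2*, was the highest WT library for *Prom1*, and the log2 fold change was 0.22 (95% interval -0.19 to 0.62, limma adjusted p = 0.494). *Msi1*, the RNA-binding protein, had 161, 184, 144, 186 and 150 in WT. In Chd8L+/- replicates 1 to 7 it had 151, 78.2, 91.5, 117, 97.4, 263 and 135. Thus 5 of 7 Chd8L+/- libraries were below every WT library and 1, replicate 6, was above every WT library. The coefficient of variation was 11.6% in WT and 46.9% in Chd8L+/-. The log2 fold change was -0.41 (95% interval -0.95 to 0.13, limma adjusted p = 0.324). Without Chd8L+/- replicate 6 it was -0.59 (adjusted p = 0.132).

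**Figure D2:**
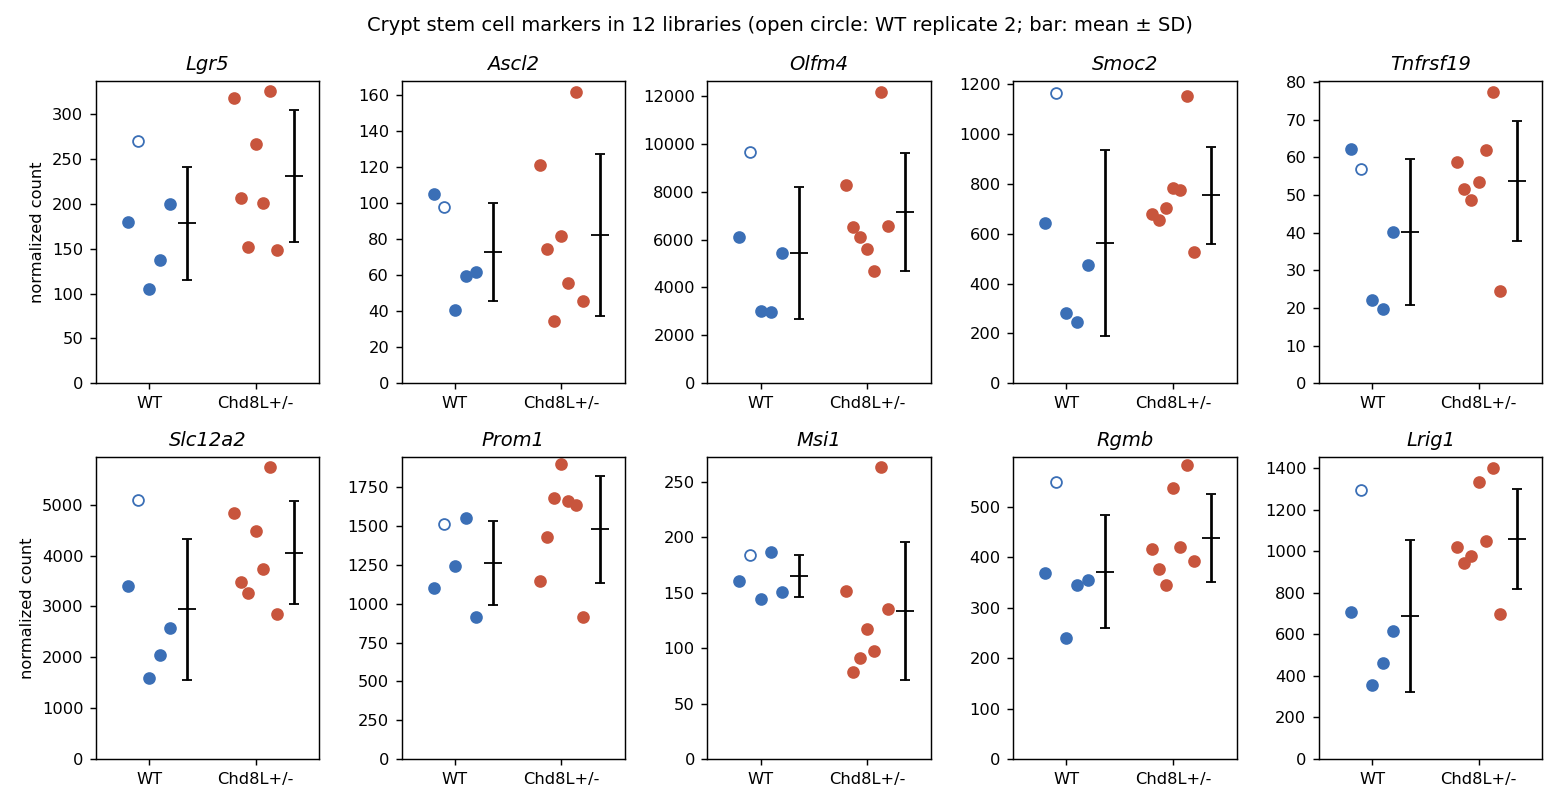
Normalized count (axes from 0) of each marker in 5 WT (blue) and 7 Chd8L+/- (red) libraries in replicate order, with the mean ± SD beside them and WT replicate 2 as an open circle. For *Lrig1*, *Smoc2* and *Slc12a2* all 7 Chd8L+/- libraries are above the WT median, and for *Msi1* 5 of 7 are below every WT library.

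Without WT replicate 2, 3 of the 10 passed an adjusted p of 0.05 in limma, all higher in Chd8L+/-, where 14.0% of all genes passed as higher and 13.6% as lower. They were *Lrig1* with a log2 fold change of 0.999 (adjusted p = 0.0061), *Smoc2* with 0.95 (adjusted p = 0.017) and *Slc12a2* with 0.78 (adjusted p = 0.021). *Olfm4* (0.72, adjusted p = 0.059) and *Rgmb* (0.42, adjusted p = 0.079) followed, *Lgr5* was at 0.55 (adjusted p = 0.120) and *Tnfrsf19* at 0.64 (adjusted p = 0.190). *Prom1* was at 0.29 (adjusted p = 0.300), *Ascl2* at 0.20 (adjusted p = 0.730) and *Msi1* at -0.37 (adjusted p = 0.338), and the median of the 10 was 0.60. WT replicate 2 had been singled out by its place on the first principal component of these same data. The calls without it are thus a description and not an independent test. For none of the 10 did the 2 groups separate fully with all libraries, where 0.515% of genes did. Nor were all 7 Chd8L+/- libraries above the other 4 WT libraries for any of them, where 6.69% of genes were. *Smoc2*, *Rgmb* and *Lrig1* came nearest with 6 of 7. WT replicate 3 weighed the other way: without it the median of the 10 was 0.26 and *Lrig1* was at 0.54 (adjusted p = 0.365).

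**Figure D3:**
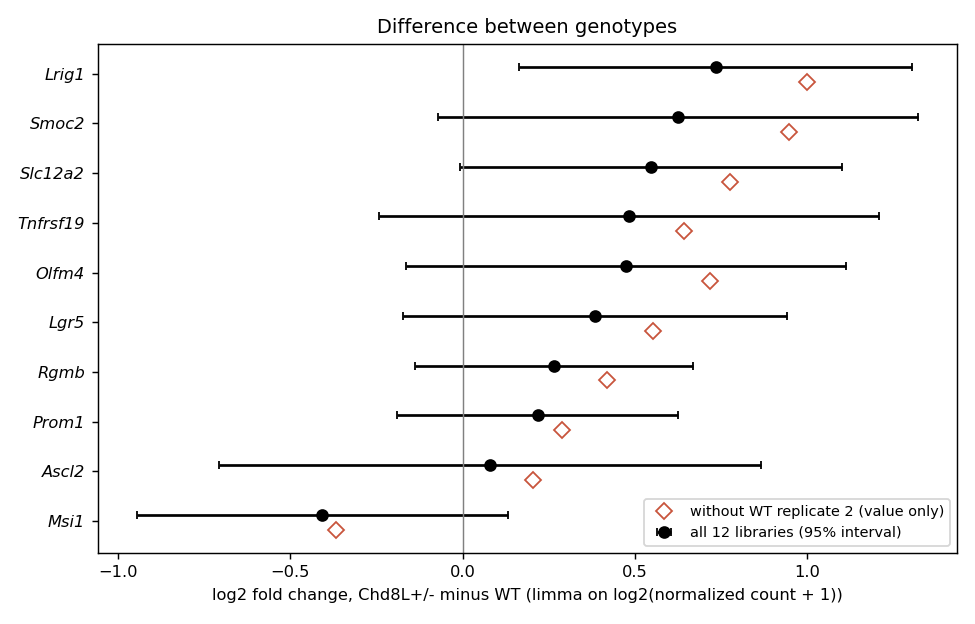
Log2 fold change (Chd8L+/- minus WT) of each marker, with all 12 libraries (black, bars are 95% intervals from limma) and without WT replicate 2 (open diamonds, no interval drawn). With all libraries the interval of *Lrig1* alone lies above 0, and leaving out WT replicate 2 moves each of the 10 estimates up.

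The libraries of each genotype were spread widely, and for most of the 10 genes in a like order. Over the 10 genes, WT replicate 3 was on average 0.79 below and WT replicate 4 was 0.54 below the mean of the 12 libraries on the log2 scale, whereas Chd8L+/- replicate 6 was 0.78 above and WT replicate 2 was 0.51 above it. Chd8L+/- replicate 6 held the highest of the 12 values for 8 of the 10 genes, WT replicate 3 the lowest for 4 and WT replicate 4 the lowest for 3. WT replicate 2 was among the 3 highest libraries for 7 genes.

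Pearson's r of log2 levels over the 12 libraries, given as a description of libraries that share depth and cell makeup, ran from -0.14 (*Prom1* with *Msi1*) to 0.96 (*Slc12a2* with *Lrig1*) over the 45 pairs, with a median of 0.69. Among the 8 genes other than *Prom1* and *Msi1*, a split made after the values had been seen, the 28 pairs ran from 0.55 to 0.96 with a median of 0.83. After each genotype's mean was taken off, the median of these 28 pairs was 0.82, and without WT replicate 2 it was 0.81. The 9 pairs with *Prom1* had a median of 0.33 and the 9 with *Msi1* a median of 0.14. With genotype means taken off these medians were 0.22 and 0.47, so the apartness of *Msi1* was smaller within the genotypes, and without WT replicate 2 they were 0.30 and 0.061. Within the 7 Chd8L+/- libraries the pairs with *Msi1* had a median of 0.62, and Chd8L+/- replicate 6 is the highest library for *Msi1* as for 7 other markers.

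**Figure D4:**
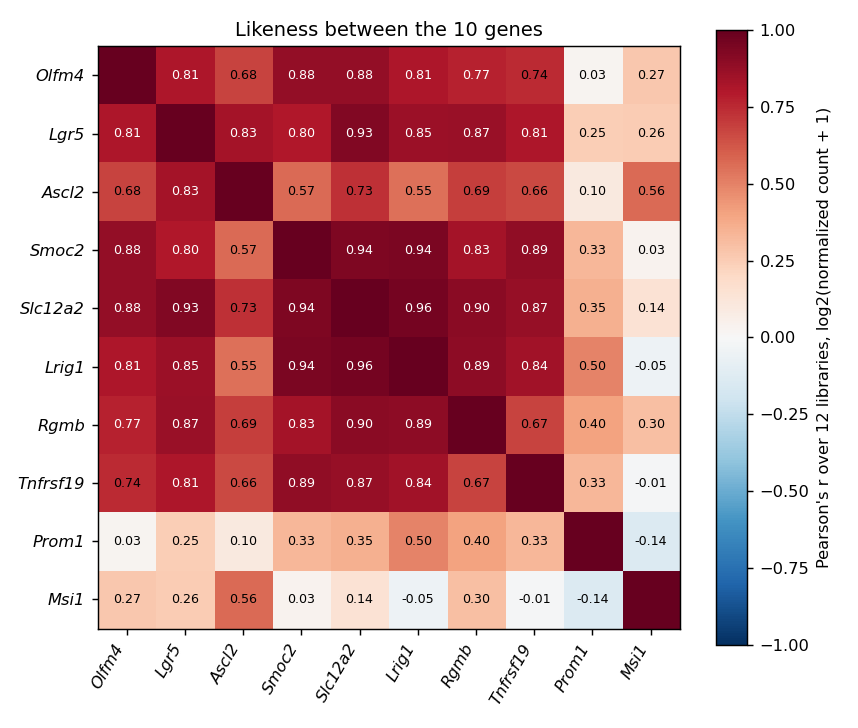
Pearson's r between the log2 levels of each pair of markers over 12 libraries (colour from -1, blue, to 1, red, with the value printed). A block of 8 genes has a median r of 0.83, and the rows of *Prom1* and *Msi1* are pale.

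The genes most like *Lgr5* by this measure, over 12 libraries, were *Slc12a2* (0.93), *Kdm1a* (0.91), *Ppp1r26* (0.90), *Whrn* (0.90) and *Ephb4* (0.88). With genotype means taken off they were *Phax* (0.96), *Slc12a2* (0.92), *Angpt2* (0.90), *Ppp1r26* (0.90) and *Kdm1a* (0.90). *Slc12a2* was thus first of all genes tested in the one list and second in the other, and *Ascl2* ranked 62 and 8. The genes most like *Olfm4* were *Xylb* (0.94), *Utp18* (0.94), *Timm8a1* (0.94), *Dnah8* (0.93) and *Vgll4* (0.93), and with genotype means taken off *Utp18* (0.94), *Cps1* (0.93), *Scn2b* (0.93), *Xylb* (0.93) and *Timm8a1* (0.93). *Scn2b* is itself on the list of further stem cell genes below.

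Gene lists of dividing cells and of other cell types moved with some of the same libraries. Dividing cells can include the stem cells themselves, so the list of dividing crypt cells is not apart from them. The summed normalized count of 30 genes of dividing crypt cells was 13660, 26124, 5966, 6661 and 10712 in WT replicates 1 to 5, and 14990, 19470 and 29078 (lowest, median, highest) in Chd8L+/-. WT replicates 3 and 4 were thus lowest and Chd8L+/- replicate 6 highest, as for the stem cell markers. Chd8L+/- replicate 3 did not match: its sum was 27060, above that of WT replicate 2, while its stem cell markers deviated by -0.14 on average. All 30 had a higher point estimate in Chd8L+/- (median log2 fold change 0.98), 29 with an unadjusted p of at most 0.05, and none passed the adjustment in limma or DESeq2. Without WT replicate 2, 29 passed in limma. *Mki67*, the classic proliferation marker, had a log2 fold change of 1.45 (adjusted p = 0.121), above that of each of the 10 markers. *Bub1* (1.46) and *Cenpf* (1.22), of the spindle checkpoint and the kinetochore, had adjusted p = 0.121 as well.

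The 26 genes of villus enterocytes, the absorptive cells far from the crypt, ran the other way in some libraries but not in all. Chd8L+/- replicate 1 was high in both. Its enterocyte sum was 1254200, and its stem cell markers were on average 0.32 above the mean of the 12 libraries on the log2 scale. The enterocyte sum was lowest in Chd8L+/- replicate 6 (512841) and WT replicate 2 (620227), the libraries with the highest mean of the stem cell markers. It was highest in WT replicate 3 (1339290). Of the 26, 23 had a lower point estimate in Chd8L+/- (median -0.30). Of these, 4 had an unadjusted p of at most 0.05, a share near the 11.8% of all genes. DESeq2 called 3 of the 26, all lower, and limma without WT replicate 2 called 5, all lower. Stromal and muscle markers differed too: 14 of 14 tested had a higher point estimate in Chd8L+/- (median 1.73, 7 with an unadjusted p of at most 0.05), with summed counts from 312 to 905 in WT and from 315 to 4091 in Chd8L+/-. The library highest in stem cell markers, Chd8L+/- replicate 6, had the lowest stromal sum of its group (315), and WT replicate 2 the highest of WT (905). DESeq2 called 3 of the 14 and limma without WT replicate 2 called 5, all higher. *Col3a1*, a fibrillar collagen, had a log2 fold change of 2.77 (adjusted p = 0.122). The part of these cells in the stem cell marker differences was not tested.

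**Figure D5:**
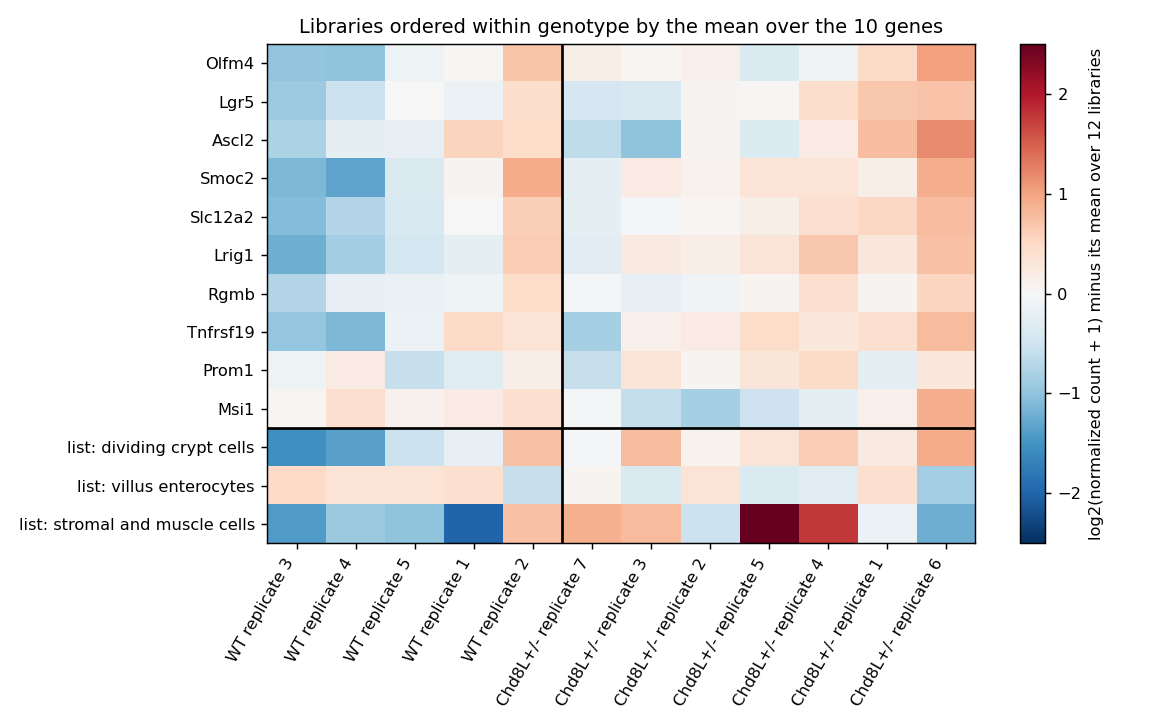
Log2 level of each marker minus its mean over 12 libraries (blue below, red above). The lower rows give the mean over the genes of 3 further lists. Libraries are ordered within genotype by the mean of the 10. WT replicate 3 and WT replicate 4 are blue and Chd8L+/- replicate 6 and WT replicate 2 red over most markers and in dividing cells, and the reverse in villus enterocytes.

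The other genes of the crypt base columnar cell were described from a list of 29 without the 10, all tested. Of these, 21 had a higher and 8 a lower point estimate in Chd8L+/-, with a median of 0.45, close to the 0.43 of the 10 markers. With an unadjusted p of at most 0.05 7 were higher and 3 lower, and none passed the adjustment in limma. DESeq2 called 1 of the 29, *Soat1* (adjusted p = 0.041). *Cdk6*, a kinase of the G1 phase, had a log2 fold change of 1.12 (SE 0.33, adjusted p = 0.121) and *Zbtb38*, a methyl-DNA-binding zinc finger, 0.50 (SE 0.15, adjusted p = 0.121). *Soat1*, which esterifies cholesterol, had -0.69 (SE 0.18, adjusted p = 0.121), with 6 of 7 Chd8L+/- libraries below every WT library. The other two lower genes, named after their values were seen, were *Phlda1* (-1.01, adjusted p = 0.122) and *Sox9* (-0.73, adjusted p = 0.127), the latter a transcription factor of crypt base and Paneth cells. Without WT replicate 2, 10 passed in limma as higher and 4 as lower, where 14.0% and 13.6% of all genes did. The same shares, and the 6.44% that DESeq2 called in either direction, apply to the counts of all the lists.

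Among 13 tested genes linked to reserve stem cells or to the response to injury, 8 were higher and 5 lower in point estimate (median 0.38), 3 and 2 of them with an unadjusted p of at most 0.05. None passed the adjustment in limma, DESeq2 called 2, *Hopx* and *Dclk1* (adjusted p = 0.021 and 0.036), and limma without WT replicate 2 called 4 as higher and 2 as lower. *Hopx*, a homeodomain-only protein of slowly cycling cells, averaged 1204 ± 270 normalized counts (SD) over the 5 WT and 706 ± 214 over the 7 Chd8L+/- libraries, a log2 fold change of -0.79 (adjusted p = 0.121 in limma). *Dclk1*, which also marks tuft cells, had -1.37 (adjusted p = 0.133), and the keratin *Krt15* had 1.10 (adjusted p = 0.138). All 21 tuft cell genes tested, *Dclk1* itself among them, had a lower point estimate, with a median of -1.78. For 21 the unadjusted p was at most 0.05, so *Dclk1* had its lower estimate together with the rest of that list. None of the 21 passed in limma, 18 did in DESeq2 and 20 in limma without WT replicate 2, all lower.

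The lists of signalling genes around the stem cell had smaller median log2 fold changes than the 10 markers. Their genes went in both directions, and some single genes differed more than any of the markers. Of 27 tested receptors and regulators of R-spondin and Wnt signals, 15 were higher and 12 lower in point estimate, with a median of 0.069. The 6 with an unadjusted p of at most 0.05 were all higher, led by the Frizzled receptor *Fzd6* (0.89, adjusted p = 0.121), the Wnt co-receptor *Lrp6* (0.38, adjusted p = 0.135) and *Wls*, which carries Wnt proteins to the cell surface (0.66, adjusted p = 0.168). None passed in limma, DESeq2 called 1, *Fzd6* (adjusted p = 0.033), and limma without WT replicate 2 called 6 as higher and 1 as lower. Of 35 tested genes of EGF, Notch and BMP signals, 19 were higher and 16 lower (median 0.11), of which 2 and 4 had an unadjusted p of at most 0.05, shares no larger than the 12.5% and 11.8% of all genes. *Egfr*, whose product LRIG1 restrains, had 264 ± 78.4 normalized counts in WT and 392 ± 93.5 in Chd8L+/- (log2 fold change 0.59, adjusted p = 0.128). *Id1* and *Id2*, direct targets of BMP signals, had log2 fold changes of -0.74 and -0.79 (adjusted p = 0.121 for both), and 6 of 7 Chd8L+/- libraries were below every WT library for *Id2*. None of the 35 passed in limma, DESeq2 called 2, *Id1* and *Id2* (adjusted p = 0.0059 and 0.00061), and limma without WT replicate 2 called 4 as higher and 7 as lower.

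Of the Paneth cells that flank the stem cells, 14 genes were tested, of which 9 had a lower point estimate (median -0.44, 5 with an unadjusted p of at most 0.05). None passed in limma or DESeq2, and limma without WT replicate 2 called 1 as higher and 4 as lower. *Ang4*, an antimicrobial ribonuclease, had -1.93 (adjusted p = 0.121). Among the remaining lists the median log2 fold changes were -0.18 for 16 goblet cell genes, -0.056 for 22 enteroendocrine, -0.22 for 15 lymphocyte, 0.55 for 11 myeloid, -0.50 for 7 endothelial and -0.17 for 3 enteric neuron and glia genes, and *Cela1*, the 1 acinar gene tested, had -0.58. They were -0.22 for 10 genes of the proximal and -0.33 for 9 of the distal small intestine, 0.085 for 11 of the colon and -0.15 for 9 epithelial genes. The distal sum was lowest in Chd8L+/- replicate 6 (13067) and WT replicate 2 (18631), the libraries highest in the stem cell markers. It reached 63348 in Chd8L+/- replicate 5, which had the lowest proximal sum (97915). The part of gut region in the marker differences was not tested.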

How the data were processed

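Gut epithelial RNA of 5 WT and 7 Chd8L+/- mice was sequenced by the authors as 75-base single-end reads and mapped to mm10 with Tophat2. The deposited signal per gene and library is the read count divided by a DESeq2 size factor; the counting program and annotation are not given in the sources used here. Values are whole multiples of 1 read (100% within 0.01 of a whole number, largest deviation 0.000427), so reads could be recovered. Before the main test, 12808 of 14244 genes (mean 10 or more) were kept. That test was limma 3.58.1 in R 4.3.3 (trend) on log2(value + 1), without a block, with Benjamini-Hochberg adjustment, since the table holds normalized values and not counts. No 2 libraries agreed within counting noise. Fold changes on this scale understate low genes. Single genes also had a two-sided exact permutation test over all 792 splits. Alternatives were pseudocounts of 0.5 and 5, a filter of 10 in each library or none at all, TMM and quantile scaling, edgeR 4.0.16 and DESeq2 1.42.0 on recovered reads, replicate number, library-name letter or library-name number as a block, and each library left out. The fit was tested on simulated data with a spread set low so that known changes would be found. That does not show how it performs at the spread of these libraries. The members and lists were chosen with earlier results of these data known. Named are the 10 genes, *Chd8*, up to 3 genes of the smallest p per list, and the 5 genes most like *Lgr5* and *Olfm4*; other names were chosen after their values were seen, as were the lists of relatives and of epithelial genes. Positions and exon lengths are from GENCODE M21, promoters from RefSeq.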

Additional observations from a re-analysis of the deposited data

Results flagged for a closer look

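*Tnfrsf19* in Chd8L+/- replicate 7 lay apart from the rest of its group, at 24.4 normalized counts, below the 48.6 of the next library, with a gap to it on the log2 scale of 0.593 of the range of the 7 libraries. On the normalized counts themselves the gap was 0.456 of the range, which would not have stood out. Of 22 gene and genotype groups examined in this way (the 10 markers and *Chd8*), 1 stood out, where chance gives about 1.1.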

How the results depend on the processing

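Each of 240 combinations of a marker and an alternative setting was set against its value with all 12 libraries: 231 kept direction and side of the threshold, 4 newly passed it and 5 turned direction. The median of the 10 markers was above 0 in all 24 settings, from 0.26 (without WT replicate 3) to 0.60 (without WT replicate 2). Of the 10, the 3 called without WT replicate 2 and the 1, *Lrig1*, called with the library-name number as a block without WT replicate 2 (0.85, adjusted p = 0.026 in limma; chosen after seeing the data) were the only calls in these settings; leaving out libraries gave 0 to 3. Over all genes, 3 were called with all libraries, 5 by edgeR, 811 by DESeq2, 451 with the library-name letter as a block, 0 with the library-name number as a block, 2262 with that block without WT replicate 2, and 0 to 3533 with 1 library left out, the highest without WT replicate 2, 8 without Chd8L+/- replicate 6 and 1 without WT replicate 4. *Ascl2* turned to -0.095 with quantile normalization and ranged from -0.11 to 0.25 with 1 library left out. The enteric neuron gene *Ret* (-0.18) turned to 0.021 with the library-name number as a block and ranged from -0.49 to 0.046 with 1 library left out. The cause was not tested. Replicate numbers do not pair the mice (deviations of same-numbered libraries correlated at -0.34 to 0.19); with the replicate block 0 genes and 0 markers were called, the median was 0.35 and *Ascl2* was at -0.017. Counting error is largest for *Tnfrsf19* and *Ascl2*, with as few as 20 and 37 reads.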
